A study of Homo sapiens with 8 samples.

Results

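The 9 genes described here belong to the MHC class II pathway of antigen presentation: CIITA, CD74, HLA-DRA, HLA-DPA1, HLA-DPB1, HLA-DMA, HLA-DMB, HLA-DOA and HLA-DOB. They were measured by 22 of the 54675 probe sets of the HG-U133 Plus 2.0 array, chosen because the platform annotation names one of these genes for the probe set, and none of the 22 names a second gene. In gene counts they are 9 of the 19775 genes that a probe set with a single symbol represents. The study treated cultures of the human multiple myeloma lines OPM1 and MM1S with Zalypsis, a marine-derived compound, at 5 nM, and harvested them as cell death began, at 15 to 20% Annexin V staining. The 8 arrays form 4 groups of 2: OPM1 with Zalypsis, untreated OPM1, MM1S with Zalypsis and untreated MM1S. Each line is a single established line, and the labels give no time of treatment, no vehicle and no genotype. Whether the pair of arrays in each group stems from 2 cultures is not stated, and p-values therefore capture only the variation from array to array, possibly technical.

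MHC class II molecules are pairs of an alpha and a beta chain that carry peptides from endocytosed proteins to the cell surface for CD4+ T cells. CIITA is the transactivator that the class II promoters depend on; it does not bind DNA itself but docks on a complex of RFX, CREB and NF-Y proteins that sits on the conserved S, X and Y boxes. B cells express CIITA and class II genes constitutively, and the transition to plasma cells is known for silencing CIITA, with PRDM1 as a repressor.

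The promoter sequences are shown because the X box (where RFX binds) and the Y box (a CCAAT element bound by NF-Y) are the elements the class II genes are known to share. RefSeq promoter windows on GRCh38.p14, 250 bases before to 50 after a start site, were found for 7 of the 9 genes, in 8 windows, with HLA-DPA1 having 2. CIITA and HLA-DRA are named only. The X motif searched was the run of 12 bases that begins 104 bases before the HLA-DOA start, CCCAGCAACAGA, with up to 3 mismatches, on both strands; it was picked with these sequences in view, so the matches describe the windows and are no test. It occurred in 6 members and in 31.7% of all 35116 promoter windows of the same length. CCAAT, on both strands, occurred in 6 members and in 34.6% of all windows; the 2 motifs have no bases in common in the stretches below. The X motif on the gene's strand with CCAAT 20 to 30 bases after it occurred in 3 members, HLA-DOB, HLA-DMA and HLA-DOA, and in 0.313% of all windows. The stretches with an X motif on the gene's strand read as follows, all upstream of the start, with the X motif and any CCAAT, or its reverse complement, in capitals.
HLA-DOB, chr6:32817058-32817147, minus strand: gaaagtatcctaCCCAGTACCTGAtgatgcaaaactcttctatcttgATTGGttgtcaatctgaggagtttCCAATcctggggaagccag
HLA-DMB, chr6:32941042-32941131, minus strand: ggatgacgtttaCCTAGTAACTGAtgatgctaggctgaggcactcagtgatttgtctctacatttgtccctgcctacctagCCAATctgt
HLA-DMA, chr6:32953136-32953225, minus strand: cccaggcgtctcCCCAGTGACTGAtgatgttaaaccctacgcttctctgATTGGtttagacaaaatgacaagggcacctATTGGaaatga
HLA-DOA, chr6:33009618-33009707, minus strand: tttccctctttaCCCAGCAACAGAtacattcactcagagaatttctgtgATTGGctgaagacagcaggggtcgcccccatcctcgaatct
HLA-DPA1, chr6:33073674-33073763, minus strand: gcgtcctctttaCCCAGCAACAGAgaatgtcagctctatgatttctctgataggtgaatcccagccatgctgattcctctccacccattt
HLA-DPA1, in the second of its windows, carries the same 12 letters as HLA-DOA. Between the X motif and the next CCAAT lay 23 bases in HLA-DOB, 25 in HLA-DMA, 25 in HLA-DOA and 57 in HLA-DMB, while the HLA-DPA1 stretch held no CCAAT. CD74 had its X motif on the opposite strand, and these letters were not found in the HLA-DPB1 window or in the other HLA-DPA1 window. Of the 6 members with the X motif, on the deposited values CD74, HLA-DPA1 and HLA-DMB rose after Zalypsis in OPM1-labelled cells, HLA-DOB fell, and HLA-DMA and HLA-DOA were not called. In MM1S, HLA-DPA1 and HLA-DMA rose and the other members with the motif were not called.

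The arrays were compared on the deposited signals, the linear intensities of the authors' dChip analysis. Tests used limma on log2(signal + 32), a scale on which changes of dim genes are understated, with Benjamini-Hochberg adjustment over the 11865 genes tested and a call at an adjusted p under 0.05. All 9 members passed the filter on dim genes. HLA-DOA did so only through the OPM1 arrays, since its signal on each MM1S array lay under the limit of 27.3. The untreated OPM1 array 1 stood apart in RNA quality, with a 3′ to 5′ signal ratio of 2.26 for GAPDH and 5.80 for ACTB, where the other 7 arrays had 0.963 to 1.06 for GAPDH and 1.78 to 2.62 for ACTB. Poly-A control RNA, which is added to the sample before labelling, gave a geometric mean signal of 1862 and 1349 on the OPM1 Zalypsis arrays and 299.7 and 448 on the untreated OPM1 arrays, and between 19.7 and 25.7 on the MM1S arrays. The 28S ribosomal RNA control probe set had 11465 and 9325 on the OPM1 Zalypsis arrays and 1071 and 1327 on the untreated OPM1 arrays, and between 419 and 1225 on the MM1S arrays. Scaling the arrays to equal poly-A signal moved the median of all genes to -0.93 in the OPM1 comparison, against -0.07 as deposited, and to -3.62 between the untreated lines, against -0.05. The directions below are therefore relative to the other genes on the array, and those that this scaling turns are named. In a bulk culture, fewer cells that express a gene and less of its RNA per cell cannot be told apart.

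The cells labelled OPM1 did not carry the plasma cell marker profile of MM1S. SDC1, the syndecan that marks plasma cells, had a signal of 14.0 and 9.81 in OPM1 with Zalypsis and 6.56 and 12.9 in untreated OPM1, against 2633 and 2370 in MM1S with Zalypsis and 3443 and 2946 in untreated MM1S. PAX5, the B-cell identity factor, had 64.8 and 37.0 in OPM1 with Zalypsis and 2883 and 3556 in untreated OPM1, and below 10 on each MM1S array. The summed signal of the B-lineage list was 15687 to 18222 in untreated OPM1 against 911 to 1046 in untreated MM1S. That of the plasma cell list was 5600 to 6427 against 36321 to 38865. In each list a gene went the other way. CD38, a plasma cell marker, had 400 and 578 in untreated OPM1 against 61.1 and 47.3 in untreated MM1S. BLNK, of the B-lineage list, had 387 and 461 against 611 and 564. Of the 10 plasma cell genes, 8 had a mean over 100 in untreated OPM1, against 9 in untreated MM1S. XBP1 and JCHAIN had means of 1735 and 2031 in untreated OPM1, against 4499 and 10641. The cells are called OPM1-labelled cells below. Line and array batch cannot be told apart, because nothing says whether the lines were processed together.

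In the untreated cells, members were called in both directions between the lines on the deposited values. The only lower call, that of HLA-DMB, depended on single arrays. It was not made in the fit of every probe set (adjusted p 0.079). Of the 9 members, 5 were called higher in OPM1-labelled cells than in MM1S and 1 lower, where 28.6% of all genes tested were called higher and 35.2% lower. One of the 5 is HLA-DOA, the alpha chain of the HLA-DO modulator, with 144.4 and 135.7 in OPM1-labelled cells against 22.6 and 19.1 in MM1S. Since it passed the dim filter only through the OPM1 arrays and its MM1S signals lie under the limit, its call is no support for a difference and no fold is given. HLA-DPB1, the beta chain of HLA-DP, had 1226 and 1195 against 606 and 471 (log2 difference 1.13, SE 0.16, adjusted p 3.1e-06). HLA-DOB, the beta chain of HLA-DO, had 136.2 and 140.3 against 63.1 and 60.04 (log2 difference 0.86, SE 0.13, adjusted p 4.9e-06). On the probe set 1554984_a_at, HLA-DOB was not called between the untreated lines (-0.18), nor was HLA-DOA on 217001_x_at (0.18, adjusted p 0.28 over all probe sets). In HLA-DPB1 and HLA-DOB both OPM1-labelled arrays lay above both MM1S arrays on these brightest probe sets. HLA-DMA and HLA-DPA1 were higher by 0.75 and 0.60 on the log2 scale, again without overlap. HLA-DMB, the partner of HLA-DMA, was lower, with 209 and 370.3 against 398 and 382.5 (log2 difference -0.44, SE 0.18, adjusted p 0.042), and without the untreated OPM1 array 1 the difference was -0.07 with an adjusted p of 0.77. The call was lost on leaving out either untreated MM1S array as well (adjusted p 0.13 and 0.089) and under quantile normalization (-0.23, adjusted p 0.28). CIITA, CD74 and HLA-DRA were not called, with log2 differences of 0.25, -0.02 and -0.27. For HLA-DRA the untreated OPM1 arrays, 1146 and 2774, lay on either side of the MM1S arrays, 2286 and 2047, and without the first of them HLA-DRA was called higher (0.35, adjusted p 0.017). By the study's own rule, a ratio of group means of more than 2-fold, HLA-DPB1 and HLA-DOB were higher, and HLA-DOA too, though against an MM1S mean under the dim limit, where 13.8% of all genes were higher and 19% lower. With poly-A scaling all 9 members were called lower in untreated OPM1-labelled cells, as were 11766 of the 11865 genes. The poly-A signal of the MM1S arrays, on which this scaling rests, lay under the dim limit.

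**Figure D1:**
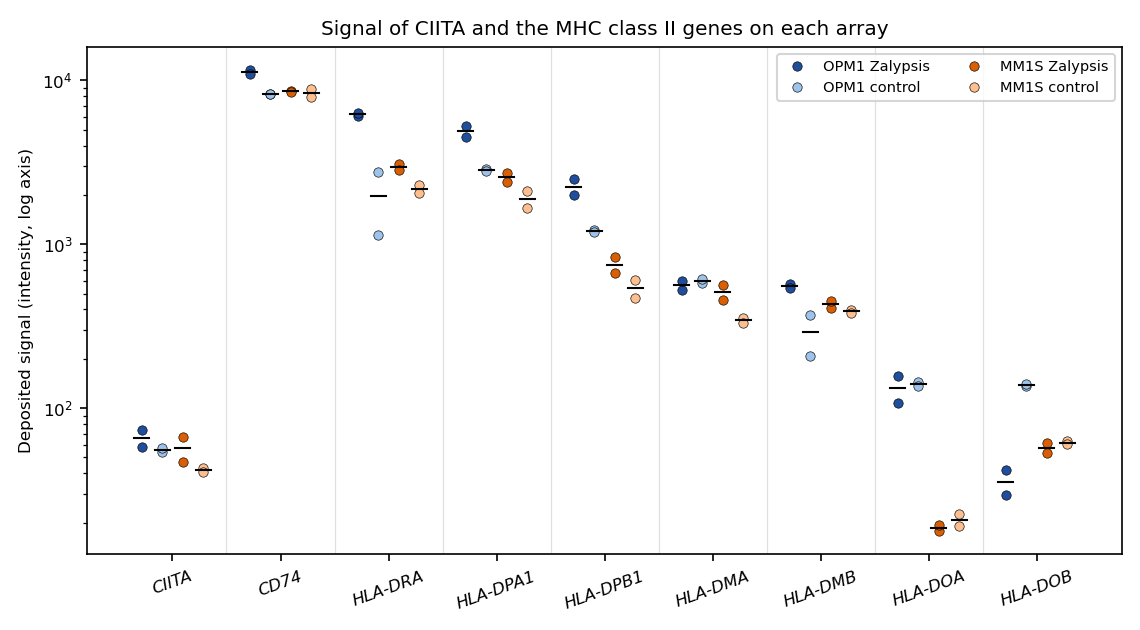
Deposited signal (log axis) of each member's brightest probe set on each of the 8 arrays, with points for arrays and a bar for the mean of each group of 2. HLA-DRA, HLA-DPA1 and HLA-DPB1 are highest in OPM1 with Zalypsis, HLA-DOB is lowest there (29.3 and 42.0), and the untreated OPM1 points of HLA-DRA lie far apart (1146 and 2774).

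After Zalypsis, the class II genes of MM1S that passed the test moved up, and by less than 2-fold. HLA-DMA, HLA-DPA1 and HLA-DPB1 were called higher, 3 of 9 members, and none was called lower, where 16.4% of all genes tested were called higher and 21.1% lower. HLA-DMA, the alpha chain of the HLA-DM editor that removes the CLIP peptide of the invariant chain, had 562 and 455 in MM1S with Zalypsis against 355 and 332 in untreated MM1S. Both treated arrays lay above both untreated ones (log2 change 0.52, SE 0.15, adjusted p 0.011). HLA-DPA1, the alpha chain of HLA-DP, had 2709 and 2411 against 2101 and 1659 (log2 change 0.45, SE 0.13, adjusted p 0.011). HLA-DPB1 had 834 and 668 against 606 and 471 (log2 change 0.46, SE 0.16, adjusted p 0.031). For both DP chains the groups did not overlap on the brightest probe set. In the fit of every probe set, HLA-DPA1 was called on 211990_at (adjusted p 0.023) in MM1S. It was not called on 211991_s_at (0.34, adjusted p 0.13) or 213537_at (0.03, adjusted p 0.90). HLA-DPB1 was not called in that fit on 201137_s_at (0.46, adjusted p 0.052) or 244485_at (0.12, adjusted p 0.65). The median change of the members was 0.26, against 0.02 over all genes tested. By the study's 2-fold rule, no member changed in MM1S, where 3.77% of all genes did so upward and 9.9% downward. All 3 calls were lost on leaving out the MM1S Zalypsis array 1 or the untreated MM1S array 2, and with poly-A scaling.

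The other members of MM1S were not called. HLA-DRA, the alpha chain of HLA-DR, had 3104 and 2842 with Zalypsis against 2286 and 2047 without, and the groups did not overlap (log2 change 0.45, SE 0.23, adjusted p 0.13). Its fit shares a spread with the untreated OPM1 arrays, and without array 1 of those the adjusted p was 0.0006 for the same change. CIITA had 67.0 and 46.8 against 43.1 and 40.5 (log2 change 0.26, adjusted p 0.15). CD74, the invariant chain that blocks the groove until class II reaches the endosome, had 8628 and 8531 against 8834 and 7964, overlapping (log2 change 0.03, SE 0.08). HLA-DMB, HLA-DOA and HLA-DOB had changes of 0.13, -0.07 and -0.07.

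In OPM1-labelled cells members changed in both directions: the classical chains, the invariant chain and HLA-DMB rose, HLA-DOB fell, and CIITA, HLA-DMA and HLA-DOA were not called. That is 5 of 9 members higher and 1 lower, where 25.4% of all genes tested were called higher and 38.5% lower. The median change of the members was 0.44, against -0.07 over all genes tested. By the 2-fold rule, HLA-DRA was higher and HLA-DOB lower, where 11.2% of all genes were higher and 26.7% lower.

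HLA-DRA had 6092 and 6297 in OPM1-labelled cells with Zalypsis against 1146 and 2774 without. Both treated arrays were more than 2-fold above the brighter untreated one (ratio of means 3.16, log2 change 1.78, SE 0.23, adjusted p 4.6e-07). The lower untreated value is that of the array with the raised 3′ to 5′ ratio, and without it the change was 1.15 (adjusted p 1.2e-09). The second HLA-DRA probe set, 210982_s_at, had 4574 and 4996 against 1200 and 3168 (log2 change 1.28, adjusted p 0.002 over the 32768 probe sets tested).

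HLA-DPA1 had 5295 and 4532 against 2895 and 2800 (log2 change 0.78, SE 0.13, adjusted p 2.5e-05). HLA-DPB1 had 2488 and 2005 against 1226 and 1195 (log2 change 0.87, SE 0.16, adjusted p 7.7e-05). For both chains the treated arrays lay above the untreated ones. Their RefSeq spans overlap on opposite strands. When probe sets whose suffix marks them as shared between transcripts were left out, HLA-DPB1 was represented by 244485_at and was not called, with changes of 0.04 in OPM1-labelled cells and 0.12 in MM1S.

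CD74 had 11562 and 10868 against 8241 and 8305 (log2 change 0.44, SE 0.08, adjusted p 0.00011), again without overlap. The highest signal of any probe set lay between 16628 and 18317 over the 8 arrays. The dimmer CD74 probe set, 1567628_at, had 762 and 875 against 146 and 261, a change of 1.90 (adjusted p 2.2e-06 over all probe sets).

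HLA-DMB, the beta chain of the editor, had 570.3 and 541 against 209 and 370.3 (log2 change 0.91, SE 0.18, adjusted p 0.00015), and 0.55 (adjusted p 0.013) without the untreated OPM1 array 1. Its partner HLA-DMA had 523 and 601 against 579 and 618, overlapping (log2 change -0.09, SE 0.15, adjusted p 0.64). HLA-DO restrains HLA-DM in B cells. Its beta chain HLA-DOB had 29.3 and 42.0 against 136.2 and 140.3, a fall to 0.258 of the untreated mean (log2 change -1.34, SE 0.13, adjusted p 6.3e-09). Its alpha chain HLA-DOA had 156.5 and 107.8 against 144.4 and 135.7, overlapping (log2 change -0.08, SE 0.14, adjusted p 0.63). Whether the chains of a pair differed in their change was not tested.

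With poly-A scaling the rises turned: CD74, HLA-DPA1, HLA-DPB1 and HLA-DMB were called lower, as were CIITA (-0.46) and HLA-DMA (-1.63). HLA-DRA was at -0.30 and not called. HLA-DOB was again called lower, at -1.20 where the median of all genes was -0.93. As deposited it was at -1.34 where that median was -0.07. Relative to the median of all genes under that scaling, HLA-DRA was 0.63 above it and HLA-DMB 0.19 above. HLA-DPB1, HLA-DPA1 and CD74 lay 0.17, 0.33 and 0.71 below it. These places depend on a gene's brightness. The scaling multiplies each array by a single factor and 32 is added afterwards, so bright genes move by nearly the whole factor and dim genes by less. They do not show that a gene moved relative to others of its brightness. Quantile normalization kept the 5 rises and the fall and added CIITA as higher (0.41, adjusted p 0.018). Over all genes it called 4642 of 11865 higher and 3865 lower in OPM1-labelled cells. What part the added control RNA and the ribosomal RNA signal had in the changes was not tested.

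**Figure D2:**
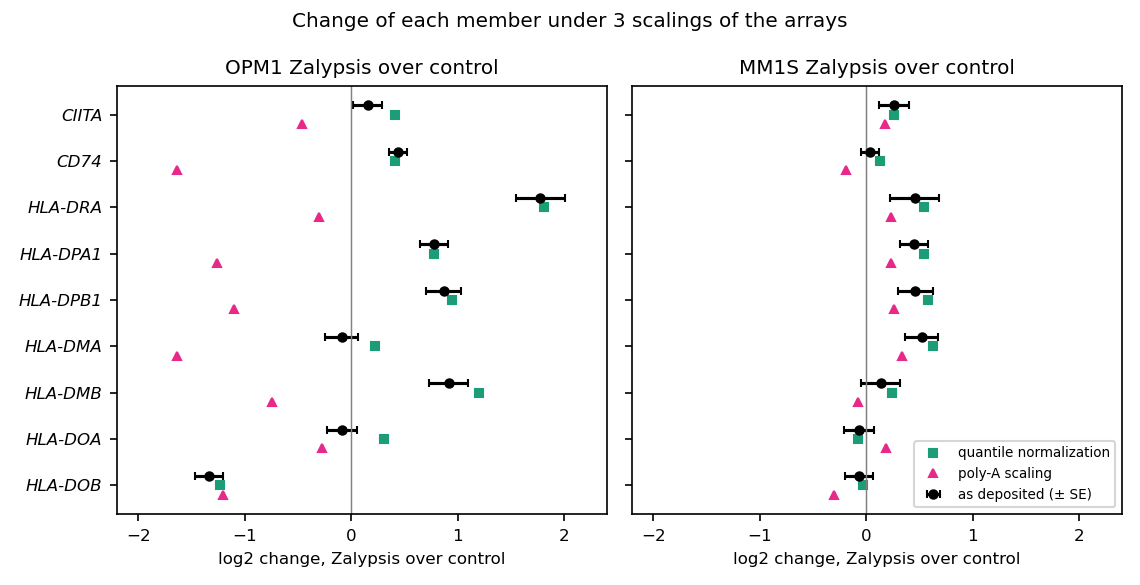
Log2 change (Zalypsis over control) of each member, as deposited with its SE (circles), after quantile normalization (squares) and after poly-A scaling (triangles), in OPM1 on the left and MM1S on the right. Under the poly-A scaling most OPM1 changes move down, HLA-DRA to -0.30 and CD74 to -1.64. HLA-DOB is low under each scaling (-1.34 as deposited and -1.20 with poly-A scaling).

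CIITA was called on 1 of its 2 tested probe sets in OPM1-labelled cells, and the difference between the probe sets was not tested. Probe set 210925_at, the brighter one, had 57.6 and 73.8 in OPM1-labelled cells with Zalypsis against 54.0 and 57.1 without (log2 change 0.15, SE 0.14, adjusted p 0.38 over all probe sets). Probe set 205101_at had 26.8 and 38.8 against 78.1 and 90.3, a change of -0.85 (SE 0.15, adjusted p 0.00025 over all probe sets), with no overlap. In MM1S the same probe set had 48.7 and 29.6 with Zalypsis against 48.9 and 51.7 without, which was not called (log2 change -0.22, adjusted p 0.31). Between the untreated lines it was called higher in OPM1-labelled cells (log2 difference 0.50, adjusted p 0.012). The third, 211884_s_at, was near the floor on every array, between 8.1 and 13.6.

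Probe sets of other members also differed in their calls. Among the 17 member probe sets tested in OPM1-labelled cells, 9 were called higher and 3 lower, where 21.8% and 32% of all 32768 were. HLA-DPA1 rose by 0.78 and 1.23 on 211990_at and 211991_s_at and fell on 213537_at, with 146 and 122 against 188 and 184 (log2 change -0.39, adjusted p 0.018). HLA-DOA rose on 217001_x_at, with 72.5 and 73.2 against 39.5 and 38.3 (log2 change 0.56, adjusted p 0.0023), but not on 226878_at. HLA-DPB1 on 244485_at and HLA-DOB on 1554984_a_at showed changes of 0.04 and -0.05. The HLA genes are polymorphic and similar to one another, so which allele or relative each probe set hybridises with is uncertain.

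**Figure D3:**
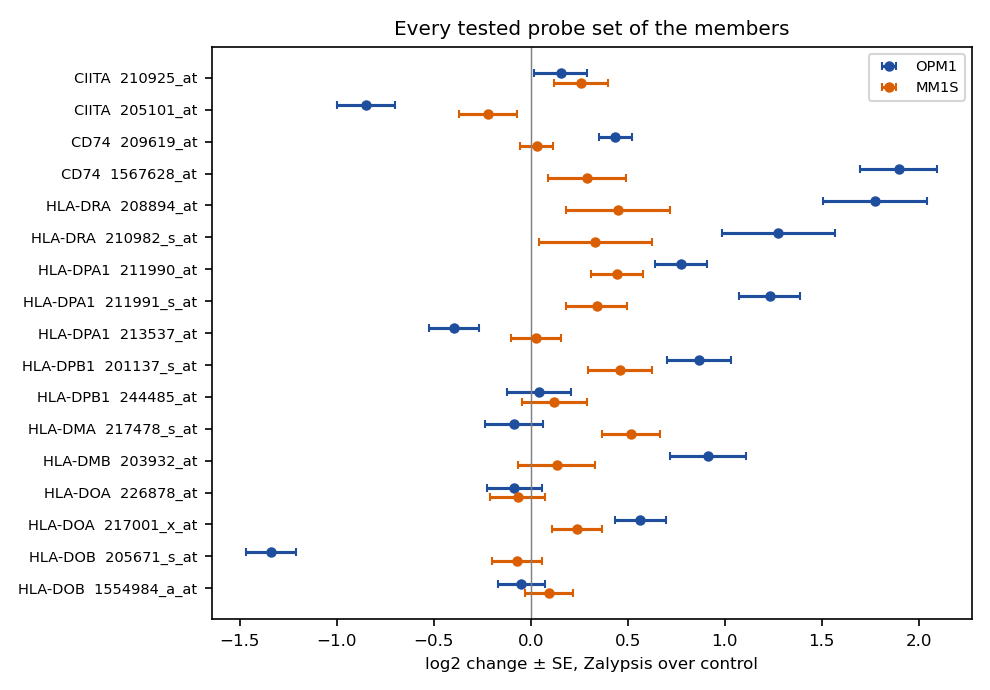
Log2 change with its SE (Zalypsis over control) for each of the 17 tested probe sets, OPM1 in blue and MM1S in orange. In OPM1 one CIITA probe set was called lower (-0.85) and the other was not called (0.15), and HLA-DPA1 probe sets were called in both directions (1.23, 0.78 and -0.39).

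The response of the 2 lines was compared directly. The change in OPM1-labelled cells minus that in MM1S was called above 0 for 3 members and below 0 for 2, where 15.3% of all genes tested were called above and 31.2% below. The difference was 1.32 for HLA-DRA (SE 0.32, adjusted p 0.0018), 0.78 for HLA-DMB (SE 0.26, adjusted p 0.017) and 0.40 for CD74 (SE 0.12, adjusted p 0.0083). It was -1.27 for HLA-DOB (SE 0.18, adjusted p 7.5e-06) and -0.61 for HLA-DMA (SE 0.22, adjusted p 0.026). For HLA-DPA1 and HLA-DPB1, which rose in both lines, it was 0.33 and 0.41 and was not called (adjusted p 0.16 for each). Other probe sets, in the fit of every probe set, differed in their calls. HLA-DRA on 210982_s_at (0.94, adjusted p 0.095) and HLA-DOB on 1554984_a_at (-0.14, adjusted p 0.58) were not called. CD74 on 1567628_at (1.60, adjusted p 0.00064) and HLA-DPA1 on 211991_s_at (0.89, adjusted p 0.0068) were called above 0. CIITA on 205101_at was called below 0 (-0.63, adjusted p 0.034). Without the untreated OPM1 array 1 the HLA-DRA difference was 0.70 (adjusted p 0.00071) and that of HLA-DMB 0.41 (adjusted p 0.18). The HLA-DMA call was lost without the OPM1 Zalypsis array 1, the untreated OPM1 array 2, the MM1S Zalypsis array 1 or the untreated MM1S array 2, with adjusted p between 0.056 and 0.16. The HLA-DMB call was also lost without the OPM1 or the MM1S Zalypsis array 1 (0.052 and 0.056), and that of CD74 without the OPM1 Zalypsis array 1 or the untreated MM1S array 1 (0.053 and 0.067). CD74 also lost its call with no filter on dim genes (adjusted p 0.057) and with no trend in the eBayes step (0.078). With poly-A scaling the differences of CD74, HLA-DRA and HLA-DMB were below 0.

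Transcripts of most factors that CIITA docks on fell in OPM1-labelled cells. Of the 7 genes for S, X and Y box factors, 5 were called lower and none higher in OPM1-labelled cells, and 1 of each in MM1S. Over all genes tested the shares were 38.5% lower and 25.4% higher in OPM1-labelled cells, and 21.1% lower and 16.4% higher in MM1S. In MM1S the called genes were NFYC (-0.99) and NFYB (0.47), the second lost without the MM1S Zalypsis array 1 or the untreated MM1S array 2. The median change of the list was -1.15 in OPM1-labelled cells and -0.13 in MM1S. NFYC, a subunit of NF-Y, changed by -2.74, RFXAP and RFX5, subunits of the RFX complex, by -2.54 and -1.15, and CREB1 by -1.57. RFX5 had 339 and 340 with Zalypsis against 834 and 758 without, with no overlap. Under quantile normalization 4 of the 7 were called lower and 2 higher, and with poly-A scaling all 7 were lower. Over all genes, quantile normalization called 3865 of 11865 lower and 4642 higher in OPM1-labelled cells. Poly-A scaling called 8958 genes in either direction there, with the median of all genes at -0.93.

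Cofactors that CIITA recruits were called lower in 6 of 8 cases in OPM1-labelled cells, with 2 called higher, and MM1S had 4 lower and 2 higher. The share of higher calls in OPM1-labelled cells was near the 25.4% over all genes, while 38.5% of all genes were lower there. In MM1S 21.1% of all genes were lower and 16.4% higher. The MM1S call of CDK9 and the OPM1 calls of CCNT1 and HDAC2 were lost on leaving out single arrays. The largest falls in OPM1-labelled cells were those of SMARCA4, the ATPase of a chromatin remodeller (-2.94), the acetyltransferases CREBBP (-2.39) and EP300 (-1.26), and the methyltransferase CARM1 (-1.86). Of the genes that control CIITA transcription, 11 of 14 were tested, and 6 were called lower and 2 higher in each line. Over all genes, 38.5% were lower and 25.4% higher in OPM1-labelled cells, and 21.1% and 16.4% in MM1S. The largest falls in OPM1-labelled cells were those of PAX5 (-5.31), the interferon receptor kinase JAK1 (-2.26), TCF3 (-2.09) and IRF8 (-1.65). In MM1S the largest falls were those of IRF4 (-2.08), IRF2 (-1.54) and JAK1 (-1.44). PRDM1, given here because it was named above as a repressor, changed by -1.57 in OPM1-labelled cells and -0.58 in MM1S. Its untreated means were 98.6 in OPM1-labelled cells and 2871 in MM1S. The MM1S calls of IRF1, IFNGR1, PRDM1 and TCF3 were each lost on leaving out single arrays. With poly-A scaling all 8 cofactors and 10 of 12 regulators tested were called lower in OPM1-labelled cells. Over all genes 8958 were called in either direction under that scaling, and the median was -0.93.

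Lysosomal and surface-turnover genes of the class II route changed in both directions. OPM1-labelled cells had 4 called higher and 2 lower of the 11 tested, and MM1S had 2 higher and 1 lower. Of all genes, 25.4% were higher and 38.5% lower in OPM1-labelled cells, and 16.4% and 21.1% in MM1S. LGMN, the asparagine endopeptidase that cuts the invariant chain, had 610 and 674 with Zalypsis against 217 and 277 without in OPM1-labelled cells (log2 change 1.28) and 687 and 572 against 429 and 409 in MM1S (0.55, a call lost without the MM1S Zalypsis array 1). CTSD rose by 0.66 in OPM1-labelled cells. SPPL2A, the protease that cuts the CD74 remnant in the membrane, fell by 1.28 and MARCHF8, a ubiquitin ligase of class II molecules, fell by 1.07 there. Without the untreated OPM1 array 1, CTSB and CST3, called higher as deposited (0.53 each), changed by 0.43 and 0.45. With poly-A scaling none of this list was called higher and 8 were called lower, where the median of all genes was -0.93.

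Of 20 class I pathway genes, 9 were called higher and 7 lower in OPM1-labelled cells, where 25.4% of all genes were higher and 38.5% lower. MM1S had 2 higher and none lower, where 16.4% and 21.1% of all genes were. NLRC5, the class I counterpart of CIITA, fell by 2.32 in OPM1-labelled cells, to 44.0 and 37.3 with Zalypsis, against 341 and 318 without. PSMB10, an immunoproteasome subunit, and ERAP1, a peptide-trimming protease, fell (-1.69 and -1.64), and HLA-G rose by 1.27, though its probe set, of the _x_at type, can hybridise with related transcripts; without the untreated OPM1 array 1 the change was 0.76. In MM1S, TAP1, a peptide transporter subunit, rose by 0.86. With poly-A scaling all 20 genes were called lower in OPM1-labelled cells, where the median of all genes was -0.93. Of 8 costimulation and adhesion genes, 1 rose (CD40, 0.83) and 1 fell (CD58, -1.96) in OPM1-labelled cells, and 1 rose (TNFSF9, 2.15) and 1 fell (CD58, -0.47, lost without the MM1S Zalypsis array 2 or the untreated MM1S array 1) in MM1S. Under quantile normalization 5 of these 8 were called higher in OPM1-labelled cells, and with poly-A scaling all 8 were lower. Over all genes, quantile normalization called 4642 of 11865 higher and 3865 lower there, and poly-A scaling called 8958 in either direction.

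**Figure D4:**
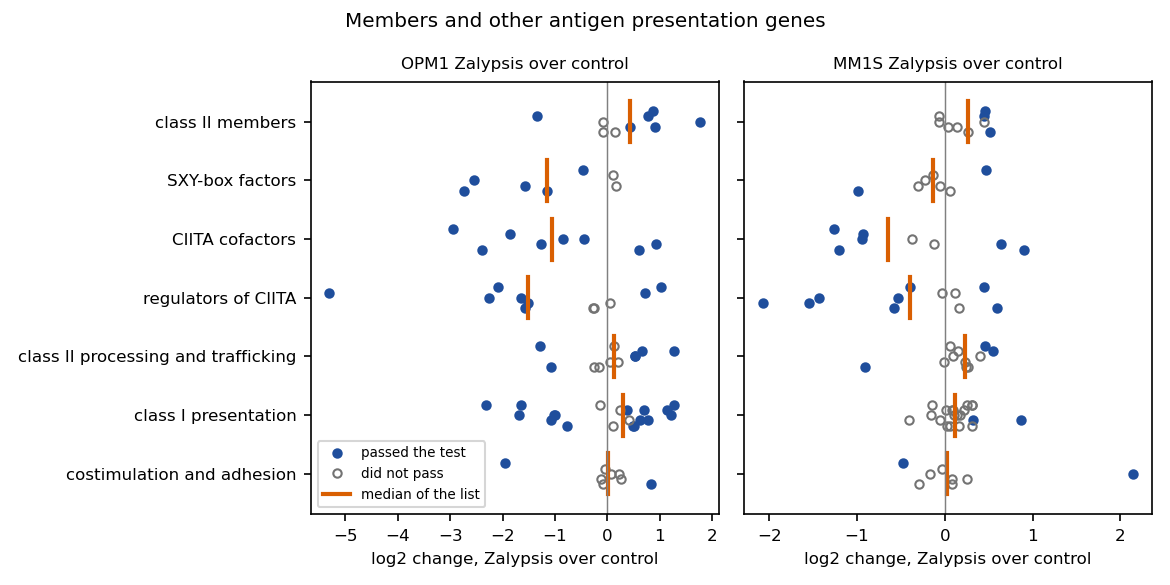
Log2 change (Zalypsis over control) of every tested gene in 7 lists, as deposited, in OPM1 on the left and MM1S on the right; filled points passed the test, open points did not, and the bar is the list's median. In OPM1 the median is 0.44 for the class II members, and -1.15 for the S, X and Y box factors and -1.05 for the CIITA cofactors.

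Cell type markers were read in the same comparisons. The summed signal of the B-lineage list was 5560 to 6723 in OPM1-labelled cells with Zalypsis, against 15687 to 18222 without. In the myeloid and dendritic list, 2 of 11 genes were tested and neither was called. Its sum was 290.5 to 396 with Zalypsis against 257 to 262 without, and CD14, which was not tested, had 123 and 74.4 against 5.82 and 4.89. In the T and NK list the sum was 184 to 186 against 120.1 to 136, with 6 of 8 genes below the dim limit in every group. Its 1 tested gene, CD3E, was called higher, with a mean of 57.5 against 35.7, but not without the untreated OPM1 array 1 (adjusted p 0.14). The plasma cell list summed to 4854 to 5396 with Zalypsis and 5600 to 6427 without. Of its 10 genes 2 were called higher and 6 lower, where 25.4% and 38.5% of all genes were. In MM1S no B-lineage, myeloid or T and NK gene was called. There only 2 of the 11 B-lineage genes had a mean over 100. PAX5, EBF1 and VPREB1, with untreated means of 6.9, 14.3 and 6.9, passed the dim filter only through the OPM1 arrays. For such genes the absence of a call in MM1S shows nothing about a fall there. Of the 10 plasma cell genes, 3 were called lower in MM1S and none higher, where 21.1% and 16.4% of all genes were. The list sum was 27914 to 29212 with Zalypsis and 36321 to 38865 without. The part of these markers in the class II changes was not tested.

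The genes whose pattern over the 8 arrays was closest to that of the brighter CIITA probe set, by the root mean square difference of centred log2 values, were KRTAP4-8, SLCO2B1, MKS1, CPAP and SCUBE3, at 0.048 to 0.069. For CD74 they were LOC728743, SLC25A35, ULK1, PRDX4 and POLDIP3, at 0.033 to 0.060.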

How the data were processed

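Gene expression was measured on 8 arrays. Per the series' design text, the authors processed them with dChip; its normalization is not given in the sources used here. Per the labels' protocols, 100 ng of RNA was amplified and labelled. The deposited values are linear intensity values, 1 per probe set and array. Arrays have no depth, and their number limits the precision.

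Values were turned into log2(value + 32). The 62 control probe sets were left out, as were probe sets without exactly 1 symbol. The probe set with the highest mean stood for a gene, and the 40% of genes with the lowest mean were left out. The tests were run in limma 3.58.1 under R 4.3.3 (1 mean per group, eBayes with a trend, all 8 arrays in 1 fit); a second fit covered every probe set. The fit was tested on simulated data. Alternatives covered the pseudocount, normalization, filter, probe set rule, block, trend, the study's 2-fold rule and leaving out arrays. All members are named, and of each other list up to 4 called genes with the largest change, except where it is said otherwise. The members and lists were chosen with earlier results of these data known.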

Additional observations from a re-analysis of the deposited data

Results flagged for a closer look

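For 5 members the change after Zalypsis differed between the lines by the test of the difference itself. In OPM1-labelled cells minus MM1S, on the log2 scale, the difference was 1.32 for HLA-DRA, 0.78 for HLA-DMB and 0.40 for CD74. It was -0.61 for HLA-DMA and -1.27 for HLA-DOB. These are values of the brightest probe sets. On another probe set the difference was not called for HLA-DRA (0.94 on 210982_s_at) or HLA-DOB (-0.14 on 1554984_a_at). It was called for CD74 (1.60 on 1567628_at). Without the untreated OPM1 array 1 the difference was 0.70 for HLA-DRA and 0.41 for HLA-DMB (adjusted p 0.18), and the calls of CD74 and HLA-DMA were each lost on leaving out 1 of several other arrays. Poly-A scaling turned the differences of HLA-DRA, HLA-DMB and CD74.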

How the results depend on the processing

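Over all alternatives, the members' values kept their status, called or not called, in 149 cases in OPM1-labelled cells and lost the call in 5. In MM1S 143 cases kept it and 16 lost the call. In the comparison of responses 132 kept it and 12 lost the call, and in that of untreated cells 142 and 10. Cases without a call in either setting count as kept, even where the sign changed. The counts also include leaving out arrays outside a comparison, which leaves a probe set's log2 change as it was. They are therefore no measure of how stable the calls were. Beside the poly-A scaling, the only reversal that involved a call was HLA-DRA between the untreated lines. It was at 0.35 without the untreated OPM1 array 1 and -0.90 without array 2, a range of -0.90 to 0.35. Poly-A scaling reversed, in OPM1-labelled cells, CIITA (-0.46), CD74 (-1.64), HLA-DRA (-0.30), HLA-DPA1 (-1.26), HLA-DPB1 (-1.10) and HLA-DMB (-0.75). It reversed the difference between the responses for CD74 (-1.45), HLA-DRA (-0.53), HLA-DPA1 (-1.49), HLA-DPB1 (-1.36) and HLA-DMB (-0.67). Between the untreated lines it reversed CIITA (-2.55), HLA-DPA1 (-3.56), HLA-DPB1 (-2.94), HLA-DMA (-3.23), HLA-DOA (-2.33) and HLA-DOB (-2.42). The cause was not tested.

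Of members called higher in MM1S (3), poly-A scaling gave 0, the mean of probe sets 1 and the 2-fold rule 0; leaving out 1 array gave 0 to 4. In OPM1-labelled cells (5 higher, 1 lower), poly-A scaling gave 0 higher and 7 lower, and the 2-fold rule 1 higher. Over all genes, poly-A scaling gave 8958 calls in either direction there, against 7579 as deposited. For the difference (3 higher, 2 lower), poly-A scaling gave 0 and 6, and leaving out 1 array gave 1 to 4 higher and 1 to 2 lower. Between the untreated lines (5 higher, 1 lower), poly-A scaling gave 0 higher and 9 lower, the 2-fold rule 3 higher, and quantile normalization, no filter, the mean of probe sets and the 2-fold rule 0 lower; leaving out 1 array gave 0 to 2 lower.

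With the replicate number as a block the difference was called higher for 5 members, adding HLA-DPA1 (adjusted p 0.040) and HLA-DPB1 (adjusted p 0.027), and no other call changed. Same-numbered arrays deviated together with a correlation of 0.21 in MM1S, 0.21 in OPM1-labelled cells and -0.12 between the untreated lines, with 2 pairs each, so that the numbers are not shown to pair the arrays. HLA-DPB1 lost its calls where shared probe sets were left out (0.12 in MM1S, 0.04 in OPM1-labelled cells and 0.25 between the untreated lines).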

Other observations

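On chromosome 6, the protein-coding genes from HLA-DOB to HLA-DPB1 lie next to each other. The genes named here were chosen after their values were seen. HLA-DOB and its neighbour TAP2 fell, to 0.258 and 0.476 of their untreated means, PSMB8 and TAP1 rose (0.52 and 0.78), PSMB9 fell (-1.08), HLA-DMB rose (0.91), HLA-DMA was not called (-0.09), BRD2 rose (1.67), HLA-DOA was not called (-0.08), and HLA-DPA1 and HLA-DPB1 rose (0.78 and 0.87). With poly-A scaling the rises of TAP1 (-1.12), PSMB8 (-1.31), HLA-DMB (-0.75), BRD2 (-0.39, not called), HLA-DPA1 (-1.26) and HLA-DPB1 (-1.10) turned, and HLA-DMA was called lower (-1.63). Without the untreated OPM1 array 1, PSMB8 was not called (0.34, adjusted p 0.14). In MM1S, BRD2 and TAP1 rose by 1.22 and 0.86, and TAP2, PSMB8 and PSMB9 were not called.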
